A study of Mus musculus with 12 samples.

Results

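Neuronal differentiation genes are genes that neural progenitors switch on as they become neurons. The group described here holds 41 of them, chosen by name from the 54532 genes counted in each library and matched to the count tables by Ensembl mouse gene identifier. All 41 were found. They were sorted by role into 7 microtubule and growth cone genes, 4 neurofilament genes, 6 genes of RNA-binding proteins, 5 genes of transmitter synthesis and vesicular transport, 6 presynaptic vesicle and SNARE genes, 6 forebrain interneuron transcription factors and 7 neurogenic transcription factors.

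The libraries were RNAseq of brainstem progenitors from Nestin TVA; p53 floxed mice on a C57BL/6 background, isolated between postnatal days 3 and 5 by the labels and grown as neurospheres without serum, in EGF and FGF2. Each of the 4 groups had 3 replicates and differed in the RCAS viruses it had received, which expressed *ACVR1*, either WT or R206H, alone or together with H3.1K27M. ACVR1 is a type I receptor of the BMP pathway, R206H is an activating change in it, and H3.1K27M is a histone H3.1 whose lysine 27 is replaced by methionine. The comparisons ask what *ACVR1* R206H does to the transcriptome of progenitors without and with the mutant histone. The Tv-a receptor that lets RCAS virus in is driven by the nestin promoter, so that only nestin-expressing cells could be infected, and the floxed p53 alleles were common to all 4 groups, with no Cre named in the sample labels. No uninfected library was analysed here. The labels call the libraries replicates without saying whether they came from separate litters or cultures, so that p-values measure the spread between these libraries, which may be partly technical.

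A progenitor that leaves the cell cycle to become a neuron first makes neurogenic transcription factors such as NEUROD1 and INSM1. It then builds a leading process and a growth cone with microtubule proteins (DCX, TUBB3, the stathmins, MAP2 and tau). It also makes neurofilaments, neuronal RNA-binding proteins of the ELAVL, CELF and RBFOX families, and the synaptic vesicle machinery. In cells that are not neurons, the REST repressor complex holds many of these genes down. Neural progenitors and young oligodendrocyte precursors also make some of the same transcripts, *Map2* and *Gap43* among them, so that no single gene of the group identifies a neuron.

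Promoter windows of 29 members were found in RefSeq (GRCm38.p6), each from 250 bases before to 50 bases after an annotated start. Stretches for 5 of them are shown, chosen after their values were seen. *Dcx*, *Tubb3*, *Map2* and *Gad1* are among the genes described most fully below, and *Syn1* is one of the 2 members whose windows hold CAGCACC. The bases are those of each window before its first base in a GENCODE M21 exon, 5′ to 3′ on the strand of the gene, and for *Tubb3*, whose motif lies at the first exon, only the motif with its flanks. The *Gad1* stretch lies inside the annotated gene, in an intron of a transcript that starts further upstream. *Dcx* lies at chrX:143933312-143933469 on the minus strand and *Syn1* at chrX:20921005-20921168 on the minus strand, while *Tubb3* (chr8:123411422-123411448), *Map2* (chr1:66175079-66175272) and *Gad1* (chr2:70561879-70562041) are on the plus strand. Capitals mark TATAAA in *Dcx* and *Gad1*, CAGCACC in *Tubb3* and *Syn1*, and GGACAG in *Map2*, in either orientation. CAGCACC and GGACAG are the 2 parts of the site that REST binds.
Dcx: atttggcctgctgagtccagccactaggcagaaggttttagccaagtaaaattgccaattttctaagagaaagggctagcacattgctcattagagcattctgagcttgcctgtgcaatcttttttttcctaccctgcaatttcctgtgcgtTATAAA
Tubb3: tctcggtgccGGTGCTGatgctgcaga
Syn1: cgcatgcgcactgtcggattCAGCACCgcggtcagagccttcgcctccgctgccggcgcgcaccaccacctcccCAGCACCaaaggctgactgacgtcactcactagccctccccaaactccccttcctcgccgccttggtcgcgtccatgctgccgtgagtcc
Map2: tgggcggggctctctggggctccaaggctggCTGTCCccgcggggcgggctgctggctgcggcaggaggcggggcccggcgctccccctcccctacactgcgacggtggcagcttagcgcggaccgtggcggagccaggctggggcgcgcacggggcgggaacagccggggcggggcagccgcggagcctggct
Gad1: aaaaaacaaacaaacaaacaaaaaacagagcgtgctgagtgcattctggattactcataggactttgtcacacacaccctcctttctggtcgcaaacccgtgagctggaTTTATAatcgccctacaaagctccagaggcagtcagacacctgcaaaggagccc

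The windows differed in how many CpG dinucleotides they held. The ratio of observed to expected CpG in the whole window was 0.96 for *Syn1*, 0.85 for *Gad1*, 0.83 for *Map2* and 0.77 for *Tubb3*, against 0.22 for *Dcx* and 0.20 for *Rbfox3*. Taking the highest window of each gene, 18 of the 29 members (62.1%) had a ratio of at least 0.6, as did 38.4% of the 27025 genes with a window. On both strands, CAGCACC was present for 2 members (*Syn1* and *Tubb3*, 6.90%) and for 8.14% of all genes, and GGACAG for 13 members (44.8%) and 24.7% of all genes. The E-boxes CAGCTG and CAGATG, which proneural transcription factors bind, were each present for 8 members (27.6%), against 18.3% and 19.2% of all genes, and TATAAA for 5 members (17.2%) against 15.7%. None of the 5 words holds another, and a match is a description of these letters only.

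The unit of level is CPM, the count of a gene per total count of its library and adjusted by TMM factors, and total counts of the 12 libraries ran from 19315020 to 26456257. A gene was tested in a comparison when its mean normalized count there was at least 10. This held in at least 1 comparison for 28 of the 41 members, and 31 members had a count in every library. Per kilobase of exon, *Gap43* had the highest mean level (147 CPM per kb), followed by *Map2* (59.8), *Mapt* (23.2), *Syn2* (19.5), *Syn1* (8.03) and *Tubb3* (7.91), and *Dcx* stood at 2.70 CPM per kb. These are means over all 12 libraries, and the order turned in *ACVR1* WT, where *Map2* (82.5 CPM per kb) was above *Gap43* (80.8) and *Tubb3* (13.3) above *Syn1* (7.82). The 13 members that were never tested stayed at or below 0.680 CPM in any library. They were *Nefh*, *Slc32a1*, *Slc17a6*, *Dlx1*, *Dlx2*, *Dlx5*, *Dlx6*, *Sp8*, *Neurod2*, *Nhlh1*, *Nhlh2*, *Tbr1* and *Eomes*. *Slc17a6*, which encodes a vesicular glutamate transporter, and *Dlx5* had no count in any library, which allows at most 0.112 to 0.156 CPM per library (3 counts, counting error only), and 4 further members (*Slc32a1*, *Dlx6*, *Neurod2* and *Nhlh2*) had 1 to 3 counts over all 12 libraries. The members with reads were thus mostly the cytoskeletal, RNA-binding, GABA synthesis and presynaptic ones. Defining genes of mature neuron classes (the vesicular transporters *Slc17a6* and *Slc32a1*, and the cortical factors *Tbr1* and *Neurod2*) were at or near 0, and *Rbfox3*, which encodes the mature neuron marker NeuN, averaged 1.10 CPM.

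**Figure D1:**
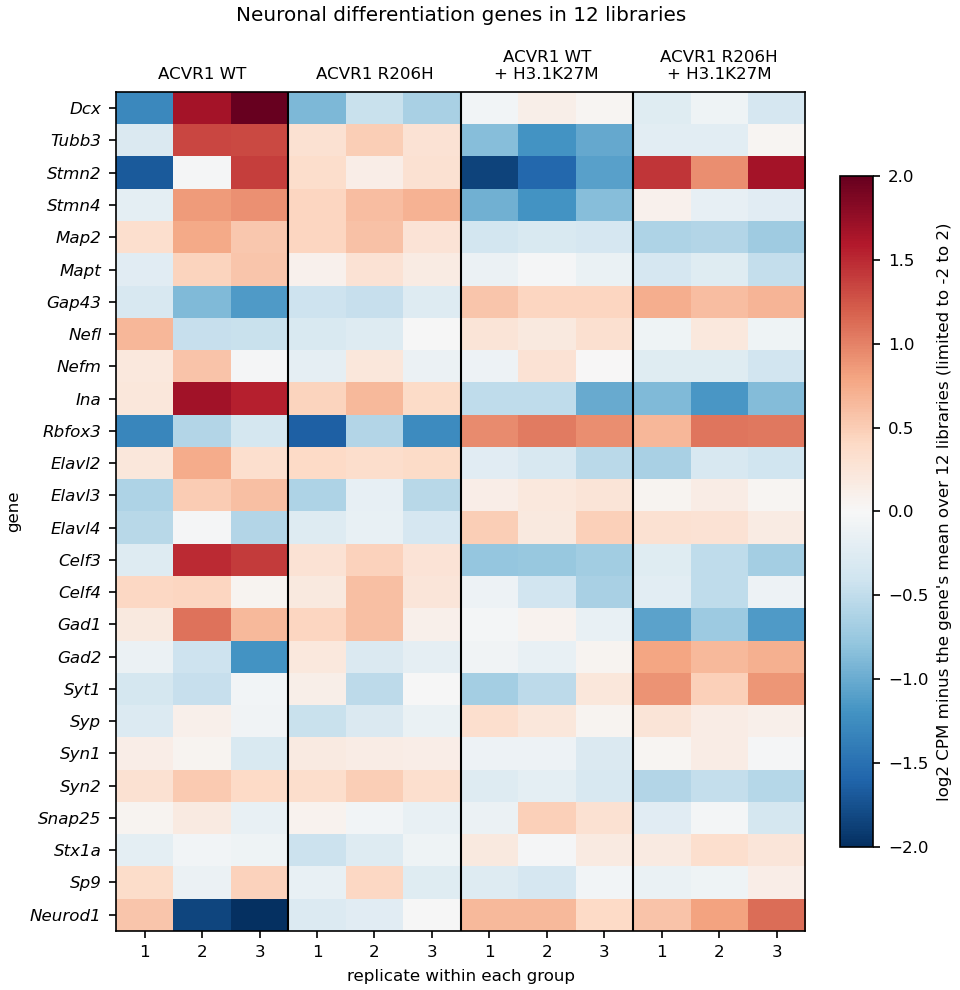
Heat map of the 26 members that were tested over all 12 libraries (rows) in each library (columns, by group and replicate). Colour is the log2 CPM minus the mean of that gene over the 12 libraries, in which *ACVR1* WT replicates 2 and 3 stand apart from replicate 1 for *Dcx*, *Tubb3*, *Ina*, *Celf3* and *Neurod1*, and the groups with H3.1K27M differ from those without it for *Map2*, *Gap43*, *Rbfox3* and *Syn2*.

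The *ACVR1* WT replicates differed from each other in these genes. *Dcx* (chrX:143855842-143933311), the doublecortin gene of migrating neuroblasts, had 10.6 CPM in replicate 1, 82.9 in replicate 2 and 118 in replicate 3, while its 9 values in the other groups lay between 14.03 and 28.3 CPM. *Tubb3* (chr8:123411424-123422015), the neuronal β-tubulin gene, had 10.4, 32.3 and 31.8 CPM. *Stmn2* (chr3:8509360-8561606), a stathmin of growth cones, had 0.706, 2.32 and 6.21 CPM. In all 3 genes replicate 1 was the lowest of its group and lay below all 3 *ACVR1* R206H libraries. The neurogenic factor *Neurod1* ran the other way, with 1.84, 0.310 and 0.194 CPM, as did the light neurofilament gene *Nefl*, with 4.75, 2.17 and 2.18 CPM, and the growth cone gene *Gap43*, with 164, 112 and 94.0 CPM. Replicates 2 and 3 averaged at least 1 above replicate 1 on the log2 scale in 7 of the 26 members tested over all libraries (26.9%), against 6.88% of 15445 genes, and at least 1 below it in 2 members (7.69%, against 6.16%). The median SD of log2 CPM in the *ACVR1* WT group was 0.42 over the members and 0.22 over all genes, and in the other 3 groups it was 0.13 to 0.15 over the members and 0.080 to 0.095 over all genes.

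**Figure D2:**
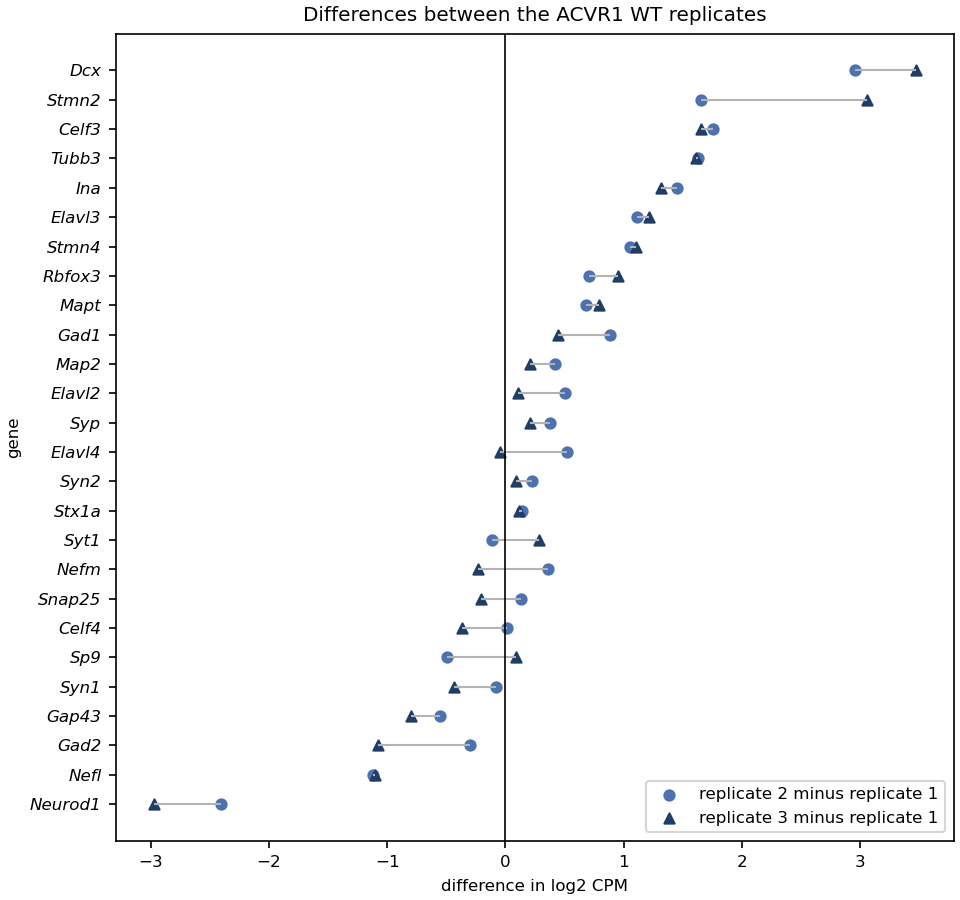
Difference in log2 CPM of *ACVR1* WT replicate 2 (circles) and replicate 3 (triangles) from replicate 1, for the 26 members tested over all 12 libraries, in the order of their mean difference. *Dcx* is at the top, with differences of 2.96 and 3.47, and *Neurod1* at the bottom, with -2.40 and -2.97.

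Genes of other cell states moved with this order. *Mki67*, a gene of dividing cells, had 337 CPM in *ACVR1* WT replicate 1, 92.2 in replicate 2 and 31.1 in replicate 3, and *Nes*, the nestin gene of progenitors, had 404, 131 and 72.5 CPM. Other progenitor genes were lowest in replicate 1, among them *Prom1* (10.02, 25.2 and 54.0 CPM), *Pax6* (51.3, 75.7 and 83.3 CPM), *Msi1* (96.2, 128 and 139 CPM) and *Sox2* (326, 374 and 363 CPM). The summed level of 8 astrocyte markers was 5114, 10981 and 15292 CPM, that of 9 microglia markers 5.60, 23.1 and 34.6 CPM, and that of 10 neural progenitor markers 6221, 5091 and 3947 CPM. No marker of these 3 lists was at 0 in every library. Their part in the differences of the neuronal genes was not tested. In bulk RNA, fewer cells of a type and less RNA per cell cannot be told apart.

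Without H3.1K27M, no neuronal differentiation gene differed between *ACVR1* R206H and *ACVR1* WT past the threshold. Of 26 members tested, 0 passed an adjusted p of 0.05 in edgeR's quasi-likelihood test after adjustment over all genes, as did 0 of 15066 genes (0% called), and 1 member (*Dcx*) and 534 genes had an unadjusted p under 0.05. DESeq2 called 0 members and 26 genes. The median log2 fold change was -0.13 over the members and -0.013 over all genes, and 7 members had a positive and 19 a negative fold change. *Dcx* had 14.03, 19.2 and 16.6 CPM with *ACVR1* R206H, which fell between *ACVR1* WT replicate 1 and the other two, for a log2 fold change of -2.09 (SE 0.77, adjusted p = 0.94). *Tubb3* had 15.7, 17.9 and 15.6 CPM with *ACVR1* R206H and a log2 fold change of -0.60 (SE 0.41, adjusted p = 0.94). The groups overlapped in both genes. Only the presynaptic gene *Syn1* had groups that did not overlap, higher with *ACVR1* R206H, in 1 of 26 members against 9.21% of all genes (5.34% higher and 3.87% lower). It had 29.8, 29.2 and 28.8 CPM with *ACVR1* R206H and 28.8, 27.3 and 21.3 CPM with *ACVR1* WT, where the lowest value of one group and the highest of the other both round to 28.8 CPM.

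This outcome rested on *ACVR1* WT replicate 1. Without that library, 8 members were called, 2 higher and 6 lower with *ACVR1* R206H, along with 3485 of 15087 genes (23.1%). *Dcx* (log2 fold change -2.605, SE 0.17, adjusted p = 0.00069), *Tubb3* (-0.97, SE 0.088, adjusted p = 0.0018), *Mapt*, which encodes the axonal protein tau (-0.33), *Ina*, the α-internexin gene of young neurofilaments (-1.14), and the RNA-binding protein genes *Elavl3* (-0.99) and *Celf3* (-1.11) were then lower. *Gap43* (0.62) and *Neurod1* (2.09) were then higher. In each of these 8 members replicate 1 was the lowest or highest of its group, so that leaving it out moved the fold change in the direction called. With 2 *ACVR1* WT libraries left, these values are a description. Leaving out any other library of this comparison gave 0 members called. *Dcx* is described in full although the rule for named genes does not reach it in this comparison, as its values had been seen.

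**Figure D3:**
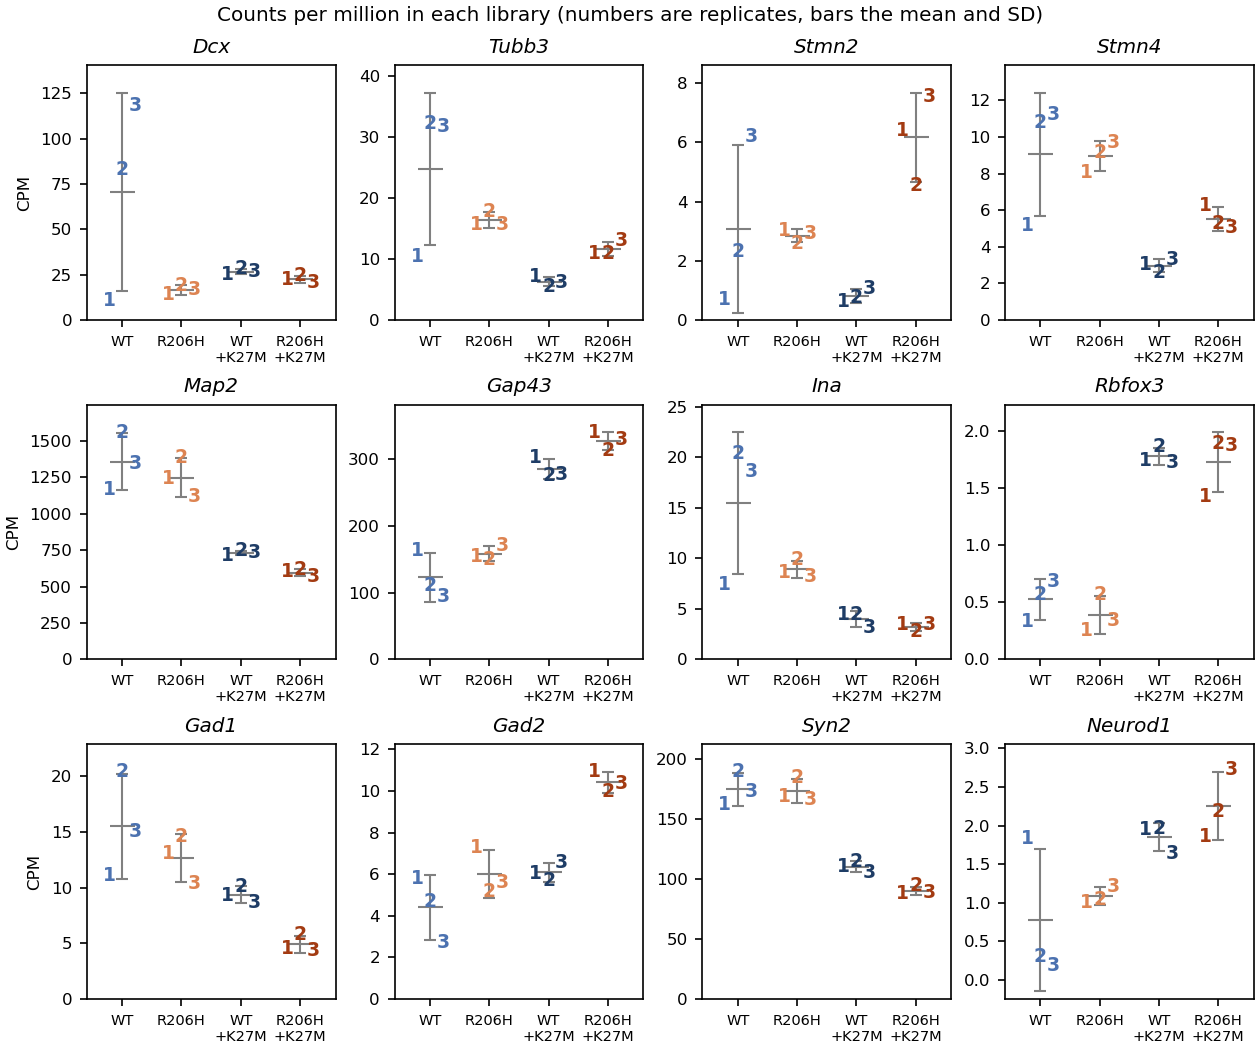
CPM of 12 members in each library by group (WT and R206H are *ACVR1* WT and *ACVR1* R206H, and K27M is H3.1K27M). Digits mark the replicate number and bars the mean and SD of 3 replicates, and the wide bars of *Dcx*, *Tubb3*, *Stmn2*, *Ina* and *Neurod1* with *ACVR1* WT stand beside the narrow ones of the other groups.

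In the presence of H3.1K27M, *ACVR1* R206H and *ACVR1* WT libraries differed in microtubule, transmitter and presynaptic genes, in both directions. All libraries of this comparison carried H3.1K27M. Of 27 members tested, 7 were higher and 4 lower with *ACVR1* R206H, 40.7% in all against 20.3% of 15672 genes (11.4% higher and 8.95% lower). The median log2 fold change was 0.0028 over the members and 0.0014 over all genes. Groups did not overlap in 8 members that were higher and 6 that were lower, where 37.2% of all genes had groups that did not overlap (14.8% higher and 22.4% lower).

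Of the 7 microtubule and growth cone genes, 4 were higher and 2 lower. *Stmn2* had 0.622, 0.764 and 1.08 CPM with *ACVR1* WT and 6.42, 4.55 and 7.55 CPM with *ACVR1* R206H, so that the lowest *ACVR1* R206H library was above all *ACVR1* WT libraries. Its log2 fold change was 2.93 (SE 0.24, adjusted p = 4.3e-06). *Tubb3* had 7.05, 5.54 and 6.20 CPM with *ACVR1* WT and 11.0, 10.9 and 13.0 CPM with *ACVR1* R206H (log2 fold change 0.92, SE 0.11, adjusted p = 8.1e-05). A second stathmin gene, *Stmn4* (chr14:66344296-66361680), had 3.03, 2.58 and 3.28 CPM against 6.27, 5.28 and 5.04 CPM (0.92, SE 0.14, adjusted p = 0.00063). The groups did not overlap in any of these 3 genes. *Gap43* (chr16:42248442-42340651) had 302, 276 and 277 CPM with *ACVR1* WT and 340, 314 and 330 CPM with *ACVR1* R206H (0.23, SE 0.043, adjusted p = 0.0022). Against these, *Map2* (chr1:66175273-66442583), which encodes a dendritic microtubule protein, had 717, 746 and 736 CPM with *ACVR1* WT and 601, 616 and 567 CPM with *ACVR1* R206H (-0.27, SE 0.042, adjusted p = 0.00071). *Mapt* fell by 0.22 on the log2 scale (adjusted p = 0.020). *Dcx* had 25.2, 28.3 and 26.7 CPM with *ACVR1* WT and 22.2, 24.5 and 20.6 CPM with *ACVR1* R206H, with no overlap, and missed the threshold (log2 fold change -0.22, SE 0.078, adjusted p = 0.063).

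The 2 genes of GABA synthesis were called in opposite directions. *Gad1* (chr2:70553072-70602014), which encodes the GAD67 enzyme, had 9.34, 10.1 and 8.64 CPM with *ACVR1* WT against 4.56, 5.79 and 4.37 CPM with *ACVR1* R206H (log2 fold change -0.90, SE 0.13, adjusted p = 0.00029). *Gad2* (chr2:22622205-22693874), which encodes GAD65, the form attached to synaptic vesicles, had 6.02, 5.68 and 6.56 CPM against 10.9, 9.95 and 10.3 CPM (0.80, SE 0.094, adjusted p = 7.4e-05). Per kilobase of exon, *Gad1* stood at 1.23 and *Gad2* at 1.04 CPM per kb with *ACVR1* WT, and at 0.642 and 1.77 CPM per kb with *ACVR1* R206H. *Slc17a7*, a vesicular glutamate transporter gene, was tested here only and was at 0.40 to 0.498 CPM in these 6 libraries (0.09, adjusted p = 0.88).

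Of the 6 presynaptic genes, 2 were higher and 1 lower. *Syt1* (chr10:108497650-109010982), the calcium sensor of vesicle release, had 2.61, 2.91 and 4.92 CPM with *ACVR1* WT and 7.89, 5.88 and 7.77 CPM with *ACVR1* R206H (log2 fold change 1.06, SE 0.20, adjusted p = 0.0025). *Syn1*, a synapsin gene whose product tethers vesicles, had 24.6, 24.5 and 21.6 CPM against 27.2, 29.1 and 25.8 CPM (0.25, SE 0.073, adjusted p = 0.031). The other synapsin gene, *Syn2* (chr6:115134902-115282006), went the other way, with 111, 114 and 106 CPM against 87.8, 94.1 and 88.8 CPM (-0.26, SE 0.048, adjusted p = 0.0025). The vesicle protein gene *Syp* and the SNARE genes *Snap25* and *Stx1a* had log2 fold changes of -0.01, -0.41 and 0.17 and were not called. None of the 3 tested neurofilament genes, the 6 RNA-binding protein genes, *Sp9* or *Neurod1* passed the threshold in this comparison. With all 12 libraries in a single fit, which takes its spread from the *ACVR1* WT replicates too, *Stmn2* and *Syt1* alone of the 11 remained called, as were 2.85% of all genes. Leaving out each library in turn called 9 to 12 members and 12.3% to 19% of all genes.

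**Figure D4:**
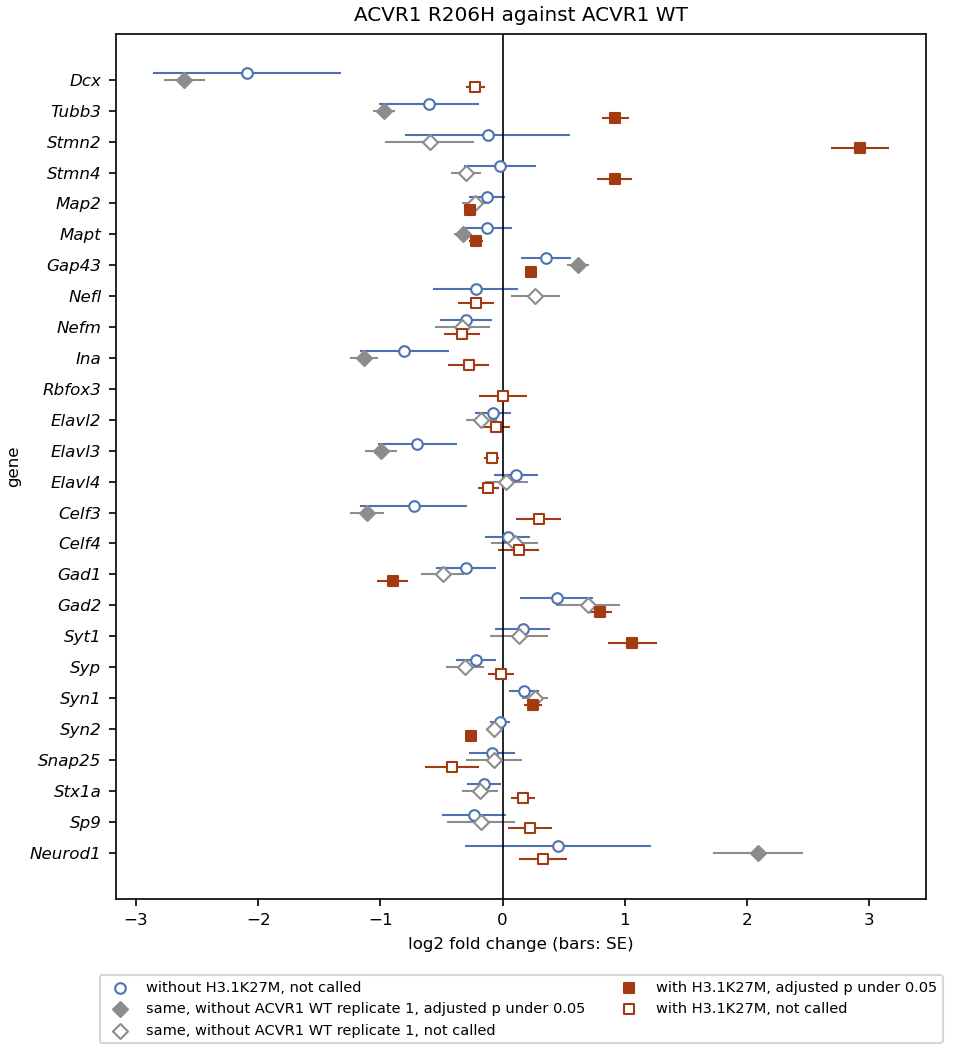
log2 fold change of *ACVR1* R206H against *ACVR1* WT with its SE, for 26 members, without H3.1K27M (circles), without H3.1K27M and without *ACVR1* WT replicate 1 (grey diamonds), and with H3.1K27M (squares). Filled symbols have an adjusted p under 0.05, and *Stmn2* reaches 2.93 with H3.1K27M while *Dcx* lies at -2.09 without it. *Rbfox3* was not tested without H3.1K27M.

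Added to *ACVR1* WT, H3.1K27M came with lower *Map2*, *Tubb3*, *Stmn4*, *Ina* and *Syn2* and with higher *Gap43* and *Rbfox3*. In this comparison 3 of 26 members were higher and 7 lower in the libraries with H3.1K27M, 38.5% in all against 23.0% of 15385 genes (12.6% higher and 10.4% lower). Groups did not overlap in 4 members that were higher and 9 that were lower, against 44.6% of all genes (23.5% higher and 21.1% lower). The median log2 fold change was -0.31 over the members and -0.021 over all genes. The comparison uses the same *ACVR1* WT libraries as the comparison with *ACVR1* R206H without H3.1K27M. *Syn2* had 162, 190 and 173 CPM without H3.1K27M and the lower values given above with it (log2 fold change -0.68, SE 0.079, adjusted p = 0.0036). *Map2* had 1167, 1560 and 1344 CPM without it (-0.90, SE 0.13, adjusted p = 0.0068), and *Stmn4* had 5.18, 10.8 and 11.2 CPM (-1.62, SE 0.32, adjusted p = 0.016). Even the lowest *ACVR1* WT library, replicate 1, was above the 3 libraries with H3.1K27M in these 3 genes. *Tubb3* (-1.99, adjusted p = 0.021), *Ina* (-1.96, adjusted p = 0.018), *Celf3* (-1.83, adjusted p = 0.033) and *Elavl2* (-0.82, adjusted p = 0.019) were the other members that fell.

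The 3 members that rose were *Rbfox3*, *Gap43* and *Elavl4*. *Rbfox3* (chr11:118489762-118911597), the NeuN gene, had 0.329, 0.567 and 0.680 CPM with *ACVR1* WT and 1.74, 1.86 and 1.72 CPM once H3.1K27M was added (log2 fold change 1.74, SE 0.28, adjusted p = 0.0092). It stood at 303 counts over all 12 libraries, and so its level was low throughout. *Gap43* rose from the *ACVR1* WT values above to 276 to 302 CPM (1.20, SE 0.20, adjusted p = 0.011). *Elavl4*, which encodes the neuronal RNA-binding protein HuD, had 8.47, 12.2 and 8.20 CPM against 17.4, 14.2 and 17.3 CPM (0.75, SE 0.19, adjusted p = 0.032). The count of members called was 19, 6 higher and 13 lower, without *ACVR1* WT replicate 1, where 52.6% of all genes were called. It was 4 without *ACVR1* WT replicate 2 (9.36% of all genes), and 3, 4 and 3 without replicates 1, 2 and 3 of the *ACVR1* WT group with H3.1K27M (7.75%, 6.82% and 6.77%). *Dcx* was not called with all libraries (-1.41, SE 0.74, adjusted p = 0.21) and was lower without *ACVR1* WT replicate 1 (-1.92, SE 0.14, adjusted p = 1.9e-05).

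With *ACVR1* R206H, H3.1K27M changed most of the tested members. Of 26 members tested, 11 were higher and 10 lower with H3.1K27M, 80.8% in all against 56.5% of 15482 genes (29.1% higher and 27.4% lower), and the count was 21 whichever library of the comparison was left out. It was 15 with all 12 libraries in a single fit (38.6% of all genes), and 7 when a log2 change of 1 or more in size was required (11.5%). Groups did not overlap in 11 members that were higher and 11 that were lower, where 63.1% of all genes had groups that did not overlap (29.3% higher and 33.8% lower). The median log2 fold change was -0.05 over the members and -0.0018 over all genes, with a median size of 0.63 over the members and 0.26 over all genes. The libraries without H3.1K27M were here the *ACVR1* R206H libraries, whose replicates differed less than those of *ACVR1* WT.

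Among microtubule and growth cone genes, *Gap43*, *Stmn2* and *Dcx* were higher and *Map2*, *Mapt*, *Tubb3* and *Stmn4* lower. *Gap43* had 154, 150 and 171 CPM without H3.1K27M and 314 to 340 CPM with it (log2 fold change 1.08, SE 0.052, adjusted p = 1.2e-08). *Map2* had 1240, 1383 and 1119 CPM without it and 567 to 616 CPM with it (-1.04, SE 0.069, adjusted p = 1.6e-07). These 2 genes, the highest of the group per kilobase, thus moved in opposite directions by nearly the same amount. *Stmn2* had 3.02, 2.599 and 2.92 CPM before and 4.55 to 7.55 CPM after (1.15, SE 0.19, adjusted p = 0.00024). *Dcx* rose by 0.46 (SE 0.11, adjusted p = 0.0030), to a level still far under those of *ACVR1* WT replicates 2 and 3. *Tubb3* fell by 0.46 on the log2 scale (SE 0.092, adjusted p = 0.0012), *Stmn4* fell by 0.67 and *Mapt* fell by 0.50.

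In the other roles, members were again called in both directions. *Ina* (chr19:47014698-47025327) had 7.43, 20.4 and 18.6 CPM with *ACVR1* WT and 4.44, 4.44 and 3.12 CPM with *ACVR1* WT and H3.1K27M. It had 8.60, 9.88 and 8.21 CPM with *ACVR1* R206H and 3.42, 2.79 and 3.44 CPM with *ACVR1* R206H and H3.1K27M (-1.43, SE 0.13, adjusted p = 1.9e-06). The medium neurofilament gene *Nefm* had 3.67, 4.89 and 3.84 CPM against 3.52, 3.52 and 3.21 CPM and was not called (-0.25, SE 0.15, adjusted p = 0.19), as *Nefl* was not (0.23, adjusted p = 0.28). With *ACVR1* WT *Nefm* had 4.85, 6.24 and 4.13 CPM without and 3.90, 5.11 and 4.20 CPM with H3.1K27M, where the groups overlapped, while the *ACVR1* R206H libraries were all above those with H3.1K27M. Exons of *Nefl* and *Nefm* overlap each other on opposite strands (32.8% of the exon bases of *Nefl* and 19.2% of those of *Nefm*), and reads there were left out as ambiguous by the unstranded counting. Of the RNA-binding protein genes, *Rbfox3* (2.18), *Elavl3* (0.54) and *Elavl4* (0.53) rose and *Elavl2* (-0.80), *Celf3* (-0.80) and *Celf4* (-0.59) fell. *Rbfox3* went from 0.251, 0.572 and 0.340 CPM to 1.43, 1.89 and 1.87 CPM (SE 0.31, adjusted p = 9.1e-05). *Elavl2* went from 16.6, 16.0 and 16.5 CPM to 8.03, 10.04 and 9.52 CPM (SE 0.094, adjusted p = 1.9e-05). *Elavl3*, which with no library left out was called in this comparison only, went from 14.8, 20.2 and 15.5 CPM to 23.7, 25.1 and 23.3 CPM. In the *ACVR1* WT libraries *Elavl2* had 14.8, 20.9 and 15.9 CPM without and 10.7, 10.03 and 8.60 CPM with H3.1K27M, a step of like size. There *Elavl3* had 14.9, 32.2 and 34.6 CPM without and 24.8, 26.2 and 27.2 CPM with H3.1K27M, where replicate 1 lay below and the other two above the libraries with the mutant histone.

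*Gad1* fell by 1.34 on the log2 scale with H3.1K27M (SE 0.15, adjusted p = 1.2e-05), from 13.03, 14.6 and 10.4 CPM in the *ACVR1* R206H libraries, while *Gad2* rose by 0.82 (SE 0.12, adjusted p = 0.00015), from 7.29, 5.15 and 5.59 CPM. In *ACVR1* WT libraries without H3.1K27M, *Gad1* had 11.1, 20.4 and 15.0 CPM and *Gad2* had 5.79, 4.69 and 2.72 CPM. Neither gene was called for H3.1K27M there (log2 fold changes of -0.74 and 0.46, adjusted p = 0.062 and 0.27). Of the presynaptic genes, *Syn2* had 169, 184 and 166 CPM without H3.1K27M and 87.8 to 94.1 CPM with it (-0.91, SE 0.052, adjusted p = 4.8e-08). *Syt1* (0.91), *Stx1a* (0.54) and *Syp* (0.48) rose, and *Syn1* (-0.07) and *Snap25* (-0.13) were not called. *Neurod1* had 1.01, 1.04 and 1.22 CPM without and 1.85, 2.19 and 2.73 CPM with H3.1K27M (1.09, SE 0.23, adjusted p = 0.0015), and 1.95, 1.96 and 1.64 CPM with *ACVR1* WT and H3.1K27M.

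**Figure D5:**
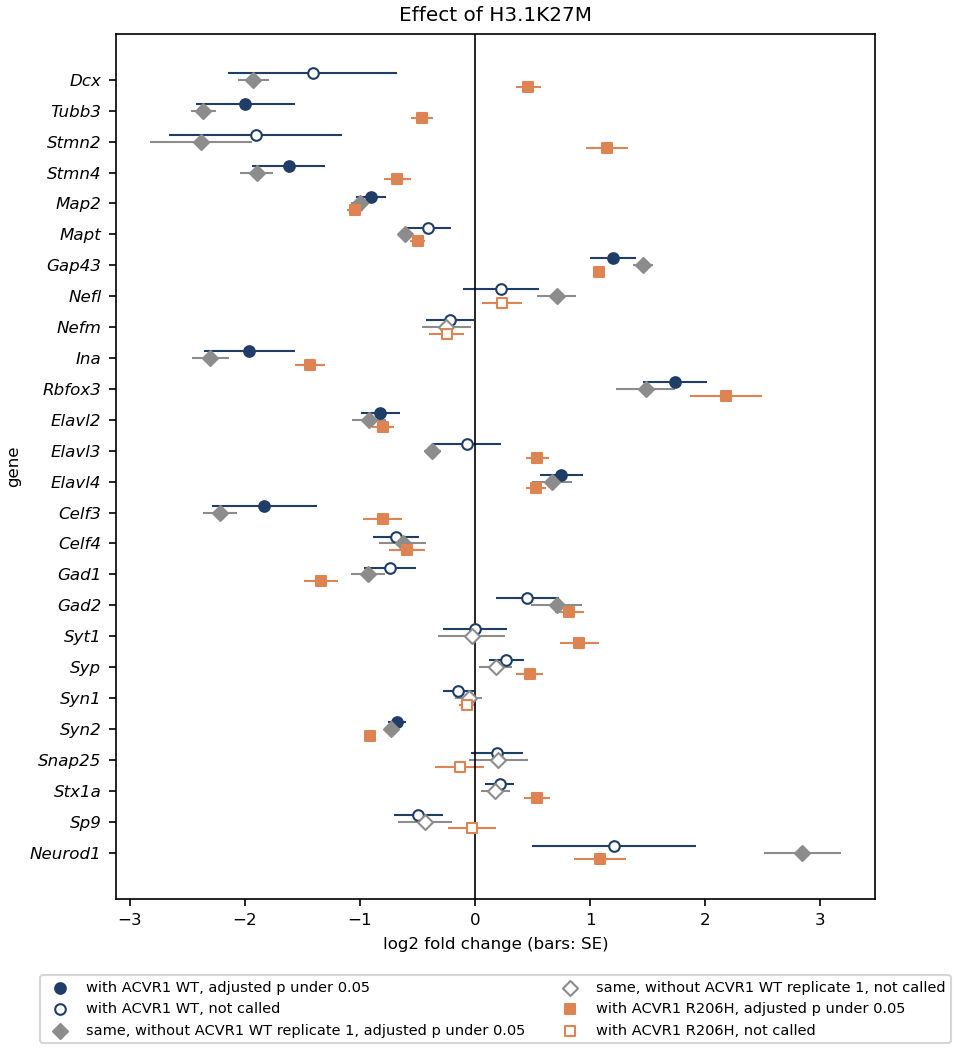
log2 fold change of the libraries with H3.1K27M against those without it, with its SE, for 26 members, in *ACVR1* WT (circles), in *ACVR1* WT without replicate 1 (grey diamonds) and in *ACVR1* R206H (squares). Filled symbols have an adjusted p under 0.05, and *Rbfox3* (1.74 and 2.18) and *Map2* (-0.90 and -1.04) lie on opposite sides of 0.

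Across the 12 libraries, *Map2* and *Syn2* followed each other most closely among the members (Pearson r = 0.99 of log2 CPM), then *Elavl2* and *Syn2* (r = 0.96) and *Map2* and *Elavl2* (r = 0.95). These libraries fall into groups with and without H3.1K27M, a split that all points share. The summed level of the 41 members was 1798 to 2408 CPM with *ACVR1* WT, 1826 to 2121 with *ACVR1* R206H, 1446 to 1477 with *ACVR1* WT and H3.1K27M, and 1292 to 1357 CPM with *ACVR1* R206H and H3.1K27M. Without *Map2*, the member with the highest CPM, the ranges were 631 to 848, 683 to 738, 710 to 745 and 724 to 750 CPM. In that remainder *Gap43* was higher and *Syn2* lower with H3.1K27M in both backgrounds, and *Mapt* lower in *ACVR1* R206H. The sum of the 6 presynaptic genes was 208 to 236 CPM with *ACVR1* WT and 214 to 230 CPM with *ACVR1* R206H. With H3.1K27M it was 149 to 159 and 140 to 148 CPM. This fall was that of *Syn2*, the only presynaptic gene called lower with H3.1K27M in either background. *Syn2* had 162 to 190 CPM with *ACVR1* WT and 166 to 184 CPM with *ACVR1* R206H. With H3.1K27M it had 106 to 114 and 87.8 to 94.1 CPM. *Syt1*, *Stx1a* and *Syp* were called higher with H3.1K27M in *ACVR1* R206H. The sum of the 4 neurofilament genes was also lower with H3.1K27M (14.7 to 29.1 CPM without and 9.56 to 13.2 CPM with it). *Ina* was the only neurofilament gene called for H3.1K27M, lower in both backgrounds.

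Whether the effect of *ACVR1* R206H differed with and without H3.1K27M was tested by an interaction over all 12 libraries. Of 26 members, 0 passed the threshold in edgeR's test, as against 0.0712% of 15445 genes (0.0583% higher and 0.0129% lower), and 6 had an unadjusted p under 0.05 (*Dcx*, *Tubb3*, *Stmn2*, *Stmn4*, *Syt1* and *Syn2*), as did 1183 of all genes (7.66%). *Stmn2* had the widest difference of effects, 3.05 on the log2 scale (SE 0.80, adjusted p = 0.36), followed by *Dcx* with 1.88 (SE 0.82, adjusted p = 0.64) and *Tubb3* with 1.53 (SE 0.46, adjusted p = 0.46). DESeq2 called *Stmn2* alone of the members (3.06, adjusted p = 0.024). Without *ACVR1* WT replicate 1, 9 members were called, 7 of them with a more positive effect of *ACVR1* R206H when H3.1K27M was present, along with 4112 genes (26.6%). *Stmn2* (3.53), *Dcx* (2.39), *Tubb3* (1.91), *Celf3* (1.42), *Stmn4* (1.23), *Elavl3* (0.92) and *Ina* (0.87) were then positive, and *Neurod1* (-1.75) and *Gap43* (-0.38) negative.

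The transcription factors of the group stayed low in all 4 groups. Of 6 factors of forebrain interneurons, *Sp9* alone was tested. It had 2.92, 2.06 and 3.11 CPM with *ACVR1* WT, 2.01, 3.02 and 1.90 with *ACVR1* R206H, 1.87, 1.77 and 2.16 with *ACVR1* WT and H3.1K27M, and 2.04, 2.10 and 2.47 CPM with *ACVR1* R206H and H3.1K27M, and its groups overlapped in all 4 comparisons. *Sp8* had 0.376, 0.619 and 0.680 CPM with *ACVR1* WT, 0.402, 0.312 and 0.340 with *ACVR1* R206H, 0.290, 0.287 and 0.200 with *ACVR1* WT and H3.1K27M, and 0.665, 0.472 and 0.0747 CPM with *ACVR1* R206H and H3.1K27M. *Dlx2* had 0.523, 0.300 and 0.448 CPM with *ACVR1* R206H and H3.1K27M against 0.0830, 0 and 0 CPM with *ACVR1* WT and H3.1K27M, on 50 counts over the 12 libraries, which is under the minimum set for the test. Among the neurogenic factors, *Insm1* had 0.518, 0.980 and 0.291 CPM with *ACVR1* WT and 0.453, 0.624 and 0.194 CPM with *ACVR1* R206H (log2 fold change -0.49, SE 0.58, adjusted p = 0.94), and 0.160 to 0.475 CPM in the libraries with H3.1K27M.

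Genes that act upstream of the group were counted from a separate list of 37 regulators of neurogenesis found in the tables. With H3.1K27M, 8 of 26 tested were higher and 3 lower with *ACVR1* R206H, among them the axon guidance receptor gene *Robo2* (1.23), *L1cam* (1.97) and *Pax6* (0.59) among those higher and *Myt1* (-0.72) among those lower, where 11.4% of all genes were higher and 8.95% lower. Adding H3.1K27M to *ACVR1* WT lowered 9 of 26 and raised 0 (10.4% and 12.6% of all genes), with *Neurog2* at -2.98 and *Myt1* at -1.65. Adding it to *ACVR1* R206H raised 7 and lowered 12 of 26 (29.1% and 27.4% of all genes). Without H3.1K27M, 0 of 25 were called. *Dpysl3* had the highest mean of the list, with 516 to 1062 CPM over the 12 libraries.

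Of 13 repressors of neuronal genes, 8 were higher and 1 lower with *ACVR1* R206H than with *ACVR1* WT when H3.1K27M was present, against 11.4% and 8.95% of all genes. Without H3.1K27M 0 of 13 were called, as were 0 of 15066 genes. Adding H3.1K27M lowered 6 and raised 0 in *ACVR1* WT (10.4% and 12.6% of all genes), and lowered 5 and raised 4 in *ACVR1* R206H (27.4% and 29.1%). The inhibitors of differentiation *Id1* (2.99), *Id2* (2.15), *Id3* (2.99) and *Id4* (1.84), which block proneural factors and are direct targets of BMP signalling, led this list in the comparison of *ACVR1* R206H and *ACVR1* WT with H3.1K27M. *Id2* and *Id3* were its only genes with a called interaction (1.75 and 2.31). In the libraries without H3.1K27M, *Id1* had 12.5, 11.9 and 21.8 CPM with *ACVR1* WT and 40.5, 34.4 and 32.5 CPM with *ACVR1* R206H. *Id2* had 156 to 242 against 252 to 264 CPM, and *Id3* had 71.4 to 122 against 139 to 161 CPM. Groups did not overlap in these genes, as in 5.34% of all genes in that direction, and overlapped in *Id4*. *Rest* itself had 52.1 to 55.1 CPM with *ACVR1* R206H and 56.1 to 57.1 CPM with *ACVR1* R206H and H3.1K27M, and was called in none of the 4 comparisons. *Rcor2*, which encodes a corepressor of REST, had 63.7, 78.1 and 70.2 CPM with *ACVR1* WT and 28.2, 29.4 and 25.6 CPM with *ACVR1* WT and H3.1K27M (log2 fold change -1.36, SE 0.10, adjusted p = 0.0012). It had 59.0 to 65.6 CPM with *ACVR1* R206H and 16.2 to 18.97 CPM with *ACVR1* R206H and H3.1K27M (-1.77, SE 0.070, adjusted p = 3.4e-09), and was also the repressor gene called lower with *ACVR1* R206H when H3.1K27M was present (-0.62). *Hes5*, a Notch target that holds progenitors undifferentiated, fell by 2.92 and by 2.91 on the log2 scale with H3.1K27M in *ACVR1* WT and in *ACVR1* R206H. Of 15 genes of brainstem neuron types, at most 4 reached the minimum count in a comparison, and their summed level was 3.15 to 8.17 CPM over the 12 libraries.

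Position and cell type markers also moved with H3.1K27M. The summed level of 9 forebrain genes was 3.54 to 5.58 CPM without H3.1K27M and 28.1 to 42.2 CPM with it, and all 5 that were tested were higher with H3.1K27M in *ACVR1* WT and in *ACVR1* R206H, as were 12.6% and 29.1% of all genes. *Six3*, for example, had at most 0.282 CPM in the 6 libraries without and at least 6.26 CPM in the 6 libraries with H3.1K27M. The sum of 13 hindbrain genes was 80.0 to 93.9 CPM without and 61.2 to 80.1 CPM with H3.1K27M. Of the 12 hindbrain genes tested, 6 were lower and 0 higher with H3.1K27M in *ACVR1* WT (10.4% and 12.6% of all genes), and 8 lower and 2 higher in *ACVR1* R206H (27.4% and 29.1%). Of 5 fibroblast and meningeal genes tested, 4 were higher in each background, and *Pdgfra* was lower in *ACVR1* R206H, with *Col1a2* at 2.50 and 2.76 on the log2 scale and a level of at most 3.28 CPM. The sum of 9 microglia markers was 5.60 to 34.6 CPM without and 1.49 to 3.1 CPM with H3.1K27M. Of 6 tested, 5 were lower and 0 higher in *ACVR1* WT (10.4% and 12.6% of all genes). Of 5 tested in *ACVR1* R206H, 4 were lower and 1 higher (27.4% and 29.1%). The higher one was *P2ry12*, with 0.884 to 1.31 CPM without and 1.54 to 2.50 CPM with H3.1K27M. Mouse *Acvr1* itself, whose counts may include reads of the human *ACVR1* that the viruses carried, was at 46.1 to 53.1 CPM with *ACVR1* WT, 82.3 to 114 with *ACVR1* R206H, 163 to 368 with *ACVR1* WT and H3.1K27M, and at 548 to 1056 CPM with *ACVR1* R206H and H3.1K27M. The share of these differences in the results on neuronal genes was not tested, and an effect of H3.1K27M or of *ACVR1* R206H cannot be told apart from one of the unequal *Acvr1* levels that came with it.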

How the data were processed

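RNAseq of 12 libraries was used, 3 in each of 4 groups, grouped by the sample labels. The authors used RNA-STAR (2.6.0b-1 in the submitters' processing notes) for alignment of read pairs to mm10 and HTSeq-count for counts on the Ensembl annotation, without regard to strand (union mode, minimum alignment quality 10), and they deposited raw counts per gene, neither normalized nor pooled. Reads with several matches or overlapping genes were thus lost, which lowers genes with overlapping neighbours. Symbols and positions came from GENCODE M21, of the same build.

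Each comparison was fitted on its own 6 libraries, and the interaction on all 12, with edgeR 4.0.16 (quasi-likelihood F test, TMM, R 4.3.3) leaving out genes whose normalized counts averaged under 10. P-values were adjusted over all genes tested by the Benjamini-Hochberg method, with a threshold of 0.05. SEs were the log2 fold change divided by the square root of F. The fits were tested on simulated data. With 3 libraries against 3, an exact two-sided test of 1 gene cannot go under 0.1. Genes with few counts were left out by the minimum mean count of 10, except in the alternative without a filter.

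Values were given per library for the 2 members with the highest mean CPM in each role, for members called without H3.1K27M or in the interaction, and for up to 3 members per direction with the smallest adjusted p in each other comparison, and the rest by counts and single values. *Syt1*, *Dcx*, *Nefl*, *Dlx2* and *Slc17a7* were added after their values were seen, as were *Mki67*, *Nes*, *Prom1*, *Msi1*, *L1cam*, *Neurog2*, *Id3* and *Id4* of the other lists. The members and the gene lists were chosen with earlier results of these data known. Lists of oligodendrocyte lineage, endothelial and mural, fibroblast and meningeal, ependymal and erythroid markers were also summed. The alternatives were DESeq2 1.42.0, its size factors within edgeR, no filter, the replicate block, a single fit, calls of log2 fold changes of 1 or more in size only, other scalings of CPM, and leaving out each replicate.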

Additional observations from a re-analysis of the deposited data

How the results depend on the processing

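Between *ACVR1* R206H and *ACVR1* WT without H3.1K27M, the count of neuronal differentiation genes called ran from 0 to 8 when each replicate was left out, with 8 without *ACVR1* WT replicate 1, and was 0 under the other alternatives. Over all genes, 26 were called by DESeq2, 11 by the single fit of 12 libraries and 3485 without that replicate, against 0. With H3.1K27M, the 11 members called became 2 when a log2 change of 1 or more in size was required and 2 in the single fit (307 and 440 of all genes, against 3185), and 9 to 12 when each replicate was left out, where the count of all genes fell to 2015 without replicate 2 of *ACVR1* WT with H3.1K27M and 1915 without replicate 3 of *ACVR1* R206H with H3.1K27M. For H3.1K27M with *ACVR1* WT, the 10 members called became 6 when a log2 change of 1 or more in size was required, 6 with the replicate block (2023 of all genes, against 3533) and 3 to 19 when each replicate was left out, and over all genes 6335 were called in the single fit, 1404 under the size requirement and 1037 to 8115 when each replicate was left out. For H3.1K27M with *ACVR1* R206H, the 21 members called became 7 when a log2 change of 1 or more in size was required and 15 in the single fit, and the 8745 genes called became 1781 under the size requirement. The interaction was called in 0 members by edgeR, in 1 by DESeq2, and in 0 to 9 when each replicate was left out, and over all genes in 11, 97 and 3 to 4112, with 6 under the size requirement, 18 without a filter and 2 with the replicate block. The cause of these changes was not tested, beyond the wide spread of the *ACVR1* WT replicates. For 51 fold changes of named genes, none reversed its sign under the settings that applied to it (the single fit gave 48 of them). Over all members, leaving out *ACVR1* WT replicate 1 changed the sign of 6 of 78 fold changes, with 0 of these 6 called with or without it, among them *Nefl* for *ACVR1* R206H without H3.1K27M (-0.22 to 0.27) and *Syt1* for H3.1K27M with *ACVR1* WT (0.0021 to -0.028). The replicate block used the replicate numbers of the labels and called 0, 12 and 21 members in the comparisons other than that of H3.1K27M with *ACVR1* WT, and 0 in the interaction. Deviations of same-numbered libraries from their group means correlated at -0.11 to 0.31 without H3.1K27M and at -0.023 to 0.059 in the other 3 comparisons, so that the numbers were not taken to pair the libraries. As a hint from the data, 6 of 6 libraries correlated best with their own number in the comparison of H3.1K27M with *ACVR1* WT, and 4, 2 and 3 of 6 in the others. Mean levels moved by less than 1 SD in all 112 values recomputed with other scalings. Members under about 10 counts per library were left out by the filter. Without it, 13 members were called between *ACVR1* R206H and *ACVR1* WT with H3.1K27M (12% of all genes). For H3.1K27M with *ACVR1* R206H, 22 were then called (31%).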

Other observations

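The lists of other cell types gave the following values. Of 10 oligodendrocyte lineage genes, 0 were higher and 7 lower with *ACVR1* R206H when H3.1K27M was present (11.4% and 8.95% of all genes), and their summed level was 3701 to 3779 CPM against 3828 to 4504 CPM with *ACVR1* WT and H3.1K27M. Without H3.1K27M the same list summed to 3146 to 3299 CPM with *ACVR1* R206H and 2843 to 3519 CPM with *ACVR1* WT. Of 8 astrocyte genes, 4 were higher and 1 lower with *ACVR1* R206H when H3.1K27M was present, with sums of 6604 to 6802 CPM against 5586 to 5770 CPM. Fibroblast and meningeal genes summed to 132 to 431 CPM over the 12 libraries, nearly all of it *Pdgfra* (118 to 428 CPM), which the oligodendrocyte lineage list also holds, while each of the other 6 genes was at or below 4.56 CPM. Ependymal and choroid plexus genes to 48.9 to 103 CPM, and endothelial and mural genes to 11.6 to 29.9 CPM. Erythroid genes were at or below 0.251 CPM in sum, with 4 of 5 at 0 in every library.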
